A study of Arabidopsis thaliana with 4 samples.

Results

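Extensins, AtHRGP2 and leucine-rich repeat extensins were followed as 9 genes of cell wall structural proteins, out of 13350 genes with an array probe set named for them alone. The genes were taken from a fixed list by symbol or locus: 6 classical extensins (AT1G26250, AT5G06630, AT3G28550, AT1G23720, HRGP1 and AT4G08410), the hydroxyproline-rich glycoprotein gene AtHRGP2 (AT5G19800), and 2 leucine-rich repeat extensins (AT3G24480 and AT4G18670). All 9 had 1 such probe set each, and no filter on low signal removed any. The study compared whole Arabidopsis seedlings that overexpress the peptide AtRALF1 with controls, on 4 Affymetrix arrays, 2 per group. The control RNA was an equal mixture from wild-type plants and plants transformed with the empty pART27 vector. The 35S:AtRALF1 RNA was an equal mixture from the lines labelled 35S:AtRALF1-1-I and 35S:AtRALF1-1-II, in which the near-ubiquitous 35S promoter drives the peptide gene, so that neither line can be read apart. All seedlings were 1 week old, grown on vertical plates at 24 °C under 16 h of light, following 48 h of cold. Both groups were sampled in a first and second repeat, and whether these are separate cultures is not stated in the labels. The p-values therefore cover only how these samples vary, which may be technical variation.

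Extensins are rod-like glycoproteins of the plant cell wall. Their repeats of serine followed by a run of prolines are hydroxylated and decorated with arabinose, and peroxidases can join their tyrosines into a covalent network that stiffens the wall. Many Arabidopsis extensin genes are active in root hairs, the tip-growing cells of the root epidermis. Leucine-rich repeat extensins carry an extensin-like part behind a leucine-rich repeat domain; in Arabidopsis, members of this family bind RALF peptides, the family of AtRALF1, and act with the receptor kinase FERONIA in the growing wall.

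The 6 classical extensins and AtHRGP2 all had higher signals in both 35S:AtRALF1 arrays than in both control arrays, with ratios of group means from 1.72 to 2.60 for the extensins. For AtHRGP2 no ratio is given, as its control signals were dim and the size of its difference is uncertain. The 2 leucine-rich repeat extensins did not share this pattern, with ratios of 0.934 and 0.838. The 7 log2 fold changes were 0.75 or more, a bound taken from the lowest of them, so that all 7 reach it by construction. Of all probe sets 2.33% reached it. A value above 0 was found for 7 of the 9 genes, against 43.9% of all probe sets. Over the whole array, 13.2% of probe sets had both 35S:AtRALF1 arrays above both control arrays. The genes were listed with earlier results of these data known, so the count of 7 of 7 describes these genes and is not independent evidence about extensins.

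AtHRGP2 encodes a hydroxyproline-rich glycoprotein, and the study picked it for follow-up partly from these arrays, so that its difference is not independent evidence. Its signal, a linear intensity in the units the authors deposited, was 18.2 and 23.4 in control and 66.6 and 66.4 in 35S:AtRALF1 seedlings. Both 35S:AtRALF1 arrays were above both control arrays. Neither control signal reached the 40th percentile of its array (34.6 and 32.3), a range in which detection is uncertain and was not tested. The size of the difference is therefore uncertain. On the log2(signal + 16) scale used for all fold changes, the difference was 1.17 (standard error, SE, 0.27), but it depended on the offset, with 1.64 for an offset of 1 and 0.62 for 64. RefSeq places AT5G19810, which is on the list of other extensin and hydroxyproline-rich genes below, next to AtHRGP2 on the chromosome. AT5G19810 had signals of 15.2 and 4.5 in control and 18.5 and 4.7 in 35S:AtRALF1 seedlings, all below that percentile, with a log2 fold change of 0.080.

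AT1G26250 and AT3G28550 are the classical extensins whose probe sets lack the _x_at mark. This mark of the array design denotes probes that may also bind other transcripts. AT1G26250 had signals of 100.3 and 86.8 in control and 300.7 and 186.4 in 35S:AtRALF1 seedlings (93.5 ± 9.55 against 243.6 ± 80.8, SD, n = 2 each). The 35S:AtRALF1 arrays were the more scattered group, and the log2 fold change of 1.21 (SE 0.31) was 0.89 without 35S:AtRALF1 replicate 1 and 1.53 without 35S:AtRALF1 replicate 2. AT3G28550 had signals of 55.2 and 38.7 in control and 94.3 and 113.8 in 35S:AtRALF1 seedlings (47.0 ± 11.7 against 104.1 ± 13.8, SD, n = 2 each). Its groups were separated by a factor of 1.71 between the nearest arrays, with a log2 fold change of 0.94 (SE 0.29; 0.60 with an offset of 64).

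The other 4 classical extensins were read on _x_at probe sets. AT5G06630 had signals of 278.2 and 203 in control and 546.1 and 431.4 in 35S:AtRALF1 seedlings, a log2 fold change of 0.98 (SE 0.27). In both groups the second repeat was the lower. AT1G23720 had signals of 281.2 and 310.6 in control and 515.2 and 504.4 in 35S:AtRALF1 seedlings, a log2 fold change of 0.75 (SE 0.20). Its arrays were the most alike within a group of these 4. HRGP1 (AT3G54590), a hydroxyproline-rich glycoprotein gene by its RefSeq synonyms, had signals of 552.4 and 348.4 in control and 864.5 and 835.5 in 35S:AtRALF1 seedlings. The wide control pair (450.4 ± 144.3, SD, n = 2) made its log2 fold change of 0.93 (SE 0.29) vary most among the marked genes, with 0.61 without control replicate 2 and 1.25 without control replicate 1. AT4G08410 had signals of 229.8 and 172.8 in control and 336.1 and 358.8 in 35S:AtRALF1 seedlings, a log2 fold change of 0.75 (SE 0.24; 0.56 without control replicate 2). A separate probe set, marked _s_at and listed for both AT4G08410 and AT4G08400, had signals of 70.9 and 52.3 in control and 70.9 and 86.4 in 35S:AtRALF1 seedlings. Its groups met at 70.9, and its log2 fold change was 0.29 (SE 0.28), lower than the 0.75 of the probe set named for AT4G08410 alone.

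**Figure D1:**
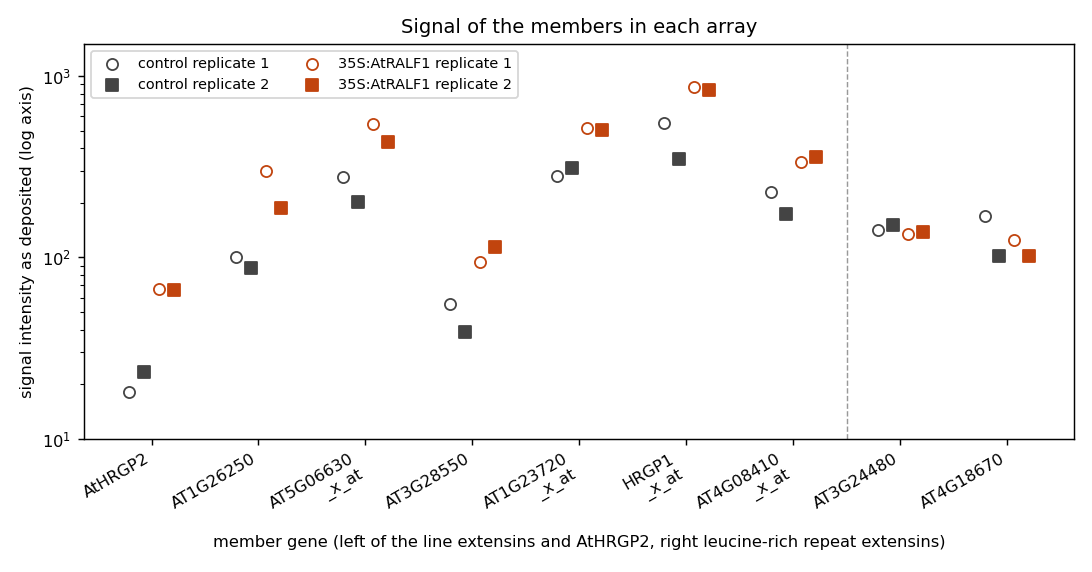
Deposited signal intensity (log axis) of the 9 genes in each of the 4 arrays; circles are the first and squares the second repeat, grey the control and red 35S:AtRALF1. For the 7 genes left of the dashed line both red points lie above both grey points, while AT3G24480 and AT4G18670 on the right show no such gap upwards.

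AT3G24480, a leucine-rich repeat extensin, had signals of 141.6 and 150.3 in control and 134.9 and 137.8 in 35S:AtRALF1 seedlings. Both 35S:AtRALF1 arrays were below both control arrays, as in 18.0% of all probe sets, but by little: the lowest 35S:AtRALF1 signal was 0.898 times the highest control signal. The log2 fold change was -0.088 (SE 0.22, 95% interval -0.66 to 0.48). AT4G18670, the other leucine-rich repeat extensin, had signals of 168.9 and 101.8 in control and 124.8 and 102 in 35S:AtRALF1 seedlings. The groups overlapped, with the first-repeat control array alone above the others, and the log2 fold change of -0.20 (SE 0.32, 95% interval -1.03 to 0.64) was 0.13 without control replicate 1.

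With 2 arrays per group, none of the 9 genes passed the test over the array. limma called 0 of 22746 probe sets higher at an adjusted p under 0.05 (0.0%) and 0 lower (0.0%). Without adjustment, 458 probe sets had a limma p under 0.05 and a higher signal (2.01%), and 522 had a lower one (2.29%). The 458 include all 6 classical extensins and AtHRGP2, all at a limma adjusted p of 0.987, and neither leucine-rich repeat extensin is in these counts (adjusted p of 0.995 for both). An exact permutation test of 2 against 2 arrays cannot give a p below 0.333.

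Classical extensins and leucine-rich repeat extensins were compared as classes. The median log2 fold change was 0.94 for the 7 genes of the first class, AtHRGP2 counted with the extensins (range 0.75 to 1.21), and -0.14 for the 2 leucine-rich repeat extensins, against -0.042 over all probe sets. Averaged over the 7 genes, the log2 level was 7.37 and 7.14 in control and 8.27 and 8.17 in 35S:AtRALF1 seedlings. Averaged over the 2 leucine-rich repeat extensins it was 7.42 and 7.13 in control and 7.19 and 7.07 in 35S:AtRALF1 seedlings. The medians of the classes differed by 1.08 (1.31 with the unmarked extensins and AtHRGP2 alone, and 0.78 with an offset of 64). This difference describes the 9 genes and not the families. The other genes measured, described below, had medians of 0.080 (7 extensin and hydroxyproline-rich genes) and 0.064 (6 leucine-rich repeat extensins). In each of these lists 5 genes lay under the 40th percentile in at least 3 arrays. The 95% intervals of all 7 lay above both leucine-rich repeat extensin estimates, and both of their intervals lay below all 7 extensin estimates. Each of the 7 intervals still overlapped both leucine-rich repeat extensin intervals. The highest lower bound of the 7 was 0.46 (AtHRGP2), and the lowest upper bound of the 2 was 0.48 (AT3G24480). These are intervals of single genes, unadjusted for their number, and no test was made of the classes, since the genes were listed with results known. Among the 7 themselves no order could be given, as each of the 7 intervals held all 7 estimates.

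**Figure D2:**
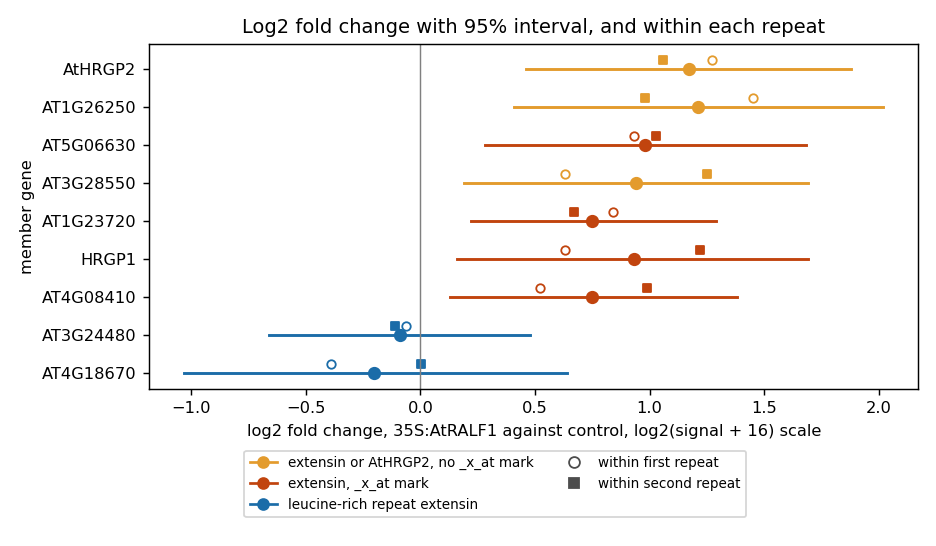
Log2 fold change of each gene between 35S:AtRALF1 and control on the log2(signal + 16) scale (large points) with its 95% limma interval (bars), and the same difference within the first (open circles) and second repeat (squares). The intervals of the 6 extensins and AtHRGP2 lie above 0, with a lowest bound of 0.13, and those of AT3G24480 and AT4G18670 span 0.

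For the 6 extensins and AtHRGP2 the difference was positive within each repeat, which follows from their separate groups, and only its size could vary. Within the first repeat the difference on the log2 scale ran from 0.52 (AT4G08410) to 1.45 (AT1G26250), and within the second from 0.67 (AT1G23720) to 1.25 (AT3G28550). It was larger in the second repeat for 4 genes, AT5G06630, AT3G28550, HRGP1 and AT4G08410, and larger in the first for AtHRGP2, AT1G26250 and AT1G23720. Of the 9 genes, 6 had a lower signal in the second control array than in the first, among them AT1G26250 at 0.865 times and HRGP1 at 0.631 times, and 3 had a higher one. For AT4G18670 the difference was -0.39 in the first repeat and 0.0024 in the second.

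The mark for shared probes did not separate genes with a large difference from those with none. The 4 extensins with _x_at had a median log2 fold change of 0.84 (0.75 to 0.98), and the 3 genes without it, AtHRGP2 included, one of 1.17 (0.94 to 1.21). The 1.17 is the value of AtHRGP2, whose size is uncertain. Without AtHRGP2 the 2 unmarked extensins had a median of 1.08. With the leucine-rich repeat extensins, both unmarked, the 5 unmarked genes had a median of 0.94. With AtHRGP2 counted as unmarked, the order of marked and unmarked extensins turned with an offset of 64, where the marked stood 0.14 higher. The difference of -0.33 between them, counted in the same way, was -0.060 without control replicate 1. Over the array the 126 _x_at probe sets had a median of -0.046 and the 22620 others one of -0.042, and both 35S:AtRALF1 arrays were above both controls in 9.52% and 13.2%. How much each of the 4 marked probe sets reads from related extensins was not tested.

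Other genes of these families came from lists drawn up from general knowledge, as the tables used here give most of them by locus alone. Of 16 other extensin and hydroxyproline-rich genes 7 had a probe set of their own, and 5 of these lay under the 40th percentile in at least 3 arrays (signals of 2.1 to 35.3). Their median log2 fold change was 0.080, with 4 positive and 3 negative, and 1 of 7 had both 35S:AtRALF1 arrays above both controls. That gene was AT3G54580, which RefSeq places next to HRGP1. Its signals were 69.5 and 56.7 in control and 101 and 105.4 in 35S:AtRALF1 seedlings, on a probe set without the _x_at mark, with a log2 fold change of 0.60 (SE 0.25; limma, adjusted p = 0.987). AT1G26240, the neighbour of AT1G26250, had signals of 34.3 and 4.1 in control and 28.5 and 35.3 in 35S:AtRALF1 seedlings, so that its log2 fold change of 0.59 (SE 0.50) rested on the second control array and was -0.074 without it. AT2G43150, the other brighter gene of the list, named after its values were seen, had 58.8 and 56.6 in control and 47.1 and 49.4 in 35S:AtRALF1 seedlings, a log2 fold change of -0.20. Listed and other extensins together, 8 of 14 had both 35S:AtRALF1 arrays above both controls and 1 had them below, against 13.2% and 18.0% of all probe sets. Of the 8, 7 were the genes listed with results known. Among the 7 other genes alone, 1 (14.3%) had them above and 1 (14.3%) below, near the shares of all probe sets. The joint count therefore describes no rise of extensins in general.

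Of 9 other leucine-rich repeat extensin genes 6 were measured, 5 of them under the 40th percentile in at least 3 arrays. The sixth, AT3G22800, differed from AT3G24480 and AT4G18670 in its direction. Its signals were 46.4 and 44.7 in control and 71.7 and 92.4 in 35S:AtRALF1 seedlings, with both 35S:AtRALF1 arrays above both controls and a log2 fold change of 0.66 (SE 0.27; limma, adjusted p = 0.987). AT4G33970 had signals of 2.6 to 4.7 and a log2 fold change of -0.12. Over the 8 leucine-rich repeat extensins measured, 3 were above 0 on the log2 scale, a share near the 43.9% of all probe sets, and the median of -0.043 was close to that of all probe sets (-0.042). With most of them dim, these values describe no direction of the family.

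**Figure D3:**
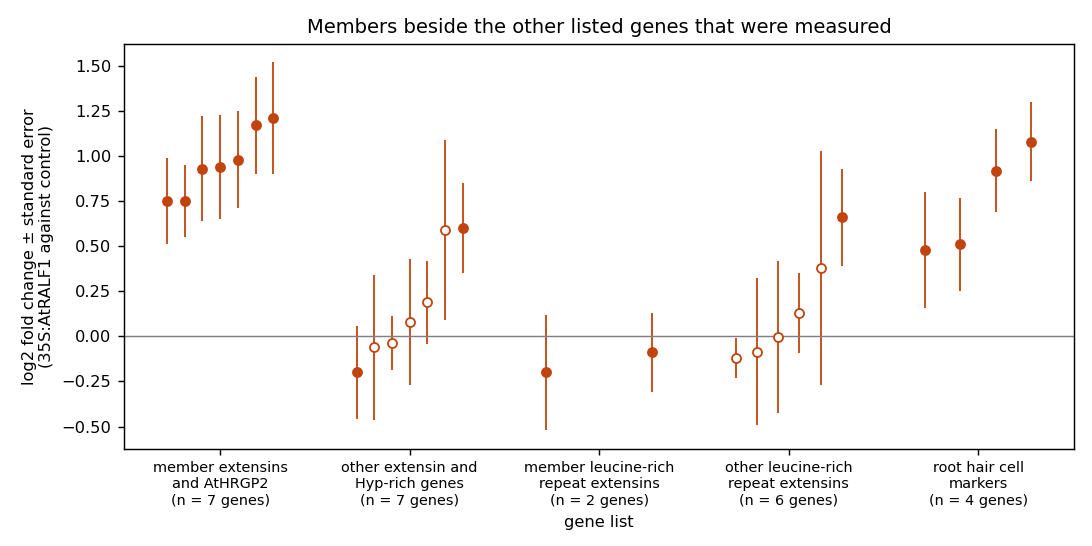
Log2 fold change ± standard error of single genes, by list; open points are genes under the 40th percentile of signal in 3 or 4 arrays. The 6 extensins and AtHRGP2 run from 0.75 to 1.21; of the 7 other extensin and hydroxyproline-rich genes 5 are open points, and AT3G54580 is the highest at 0.60.

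Enzymes that modify extensins were followed too. Of 12 genes of extensin hydroxylation and glycosylation 4 were measured, with log2 fold changes from -0.083 (AT3G57630) to 0.18 (AT3G01720) and a median of -0.022. Of 7 peroxidases linked to extensin cross-linking 3 were measured, 2 with a positive and 1 with a negative log2 fold change (median 0.34). AT4G26010 had signals of 181.1 and 225.2 in control and 378.8 and 417.4 in 35S:AtRALF1 seedlings, a log2 fold change of 0.92 (SE 0.23; limma, adjusted p = 0.987). AT4G16270, under the 40th percentile in all 4 arrays, had a log2 fold change of 0.34 (SE 0.34), and its groups overlapped. The groups also overlapped for AT1G44970, named after its values were seen, with signals of 64.9 and 55.3 in control and 55.3 and 45.7 in 35S:AtRALF1 seedlings and a log2 fold change of -0.20 (SE 0.27). None of the 4 proline-rich protein genes or the 6 root hair transcription factors listed had a probe set named for it alone, and they were not analysed here.

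Markers of other cells were set beside the extensins. Of 11 markers of root hair cells 4 were measured, the peroxidase genes AT1G30870 and AT4G26010 and the expansins EXPA18 and EXPA7, and all 4 had both 35S:AtRALF1 arrays above both controls, as in 13.2% of all probe sets. None passed the test (limma, adjusted p = 0.987 for each). Their summed signal was 504.5 and 576.2 in control and 934.3 and 1058 in 35S:AtRALF1 seedlings, and none was at 0 in any array. AT1G30870 had a log2 fold change of 1.08 (SE 0.22). The expansins were nearer to their SE, with 0.51 (SE 0.26) for EXPA18, from 135.7 and 99.6 in control to 156.8 and 190.8 in 35S:AtRALF1 seedlings, and 0.48 (SE 0.32) for EXPA7, from 62.2 and 107.1 to 111.3 and 130.7. Among the genes for the rest of the seedling, the root gene PYK10, a beta-glucosidase of endoplasmic reticulum bodies, had signals of 7079 and 6101 in control and 5715 and 4085 in 35S:AtRALF1 seedlings. Its log2 fold change was -0.44 (SE 0.33). Both 35S:AtRALF1 arrays were below both controls for PYK10 and for RCA, as in 18.0% of all probe sets, and the groups overlapped for LHCB4.1. The green tissue genes RCA and LHCB4.1, of the Calvin cycle and the light-harvesting antenna, had log2 fold changes of -0.11 and -0.049, the latter 0.030 with quantile and 0.039 with cyclic loess normalization. In RNA of whole seedlings, more root hair cells and more RNA per cell cannot be told apart, and the part of root hair number in the extensin signals was not tested. None of the 5 pollen and seed markers had a probe set named for it alone.

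By pattern over the 4 arrays, the probe sets most like the mean of the 7 genes were those of XTH18, AT5G26731 and AT2G18370, at Euclidean distances of 0.0458, 0.0853 and 0.134 on the centred log2 scale, among 6261 candidates. The 7 genes themselves lay at 0.208 (AT5G06630) to 0.459 (AT1G26250), and AT3G24480 and AT4G18670 at 1.08 and 1.20. The mean was made from these 7 genes, while AT3G24480 and AT4G18670 had no part in it. The smaller distances of the 7 genes are therefore partly built in and do not test whether they share a pattern. XTH18, a xyloglucan endotransglucosylase/hydrolase, had signals of 96.1 and 83.1 in control and 195.8 and 184.2 in 35S:AtRALF1 seedlings. With 4 arrays such likeness is a description of these samples.

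**Figure D4:**
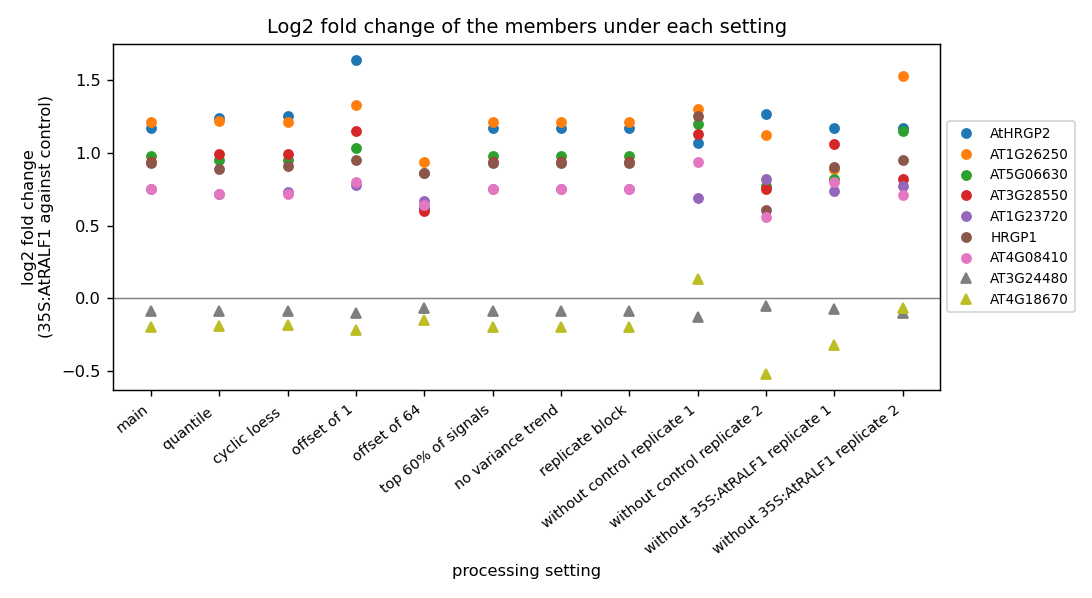
Log2 fold change of the 9 genes under the main processing and each alternative; circles are extensins and AtHRGP2, triangles leucine-rich repeat extensins. The 7 genes stay above 0 in every setting plotted, which only quantile and cyclic loess normalization could have changed, as their groups do not overlap. AtHRGP2 runs from 0.62 to 1.64 with the offset, and AT4G18670 crosses to 0.13 without control replicate 1.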

How the data were processed

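RNA of whole seedlings was labelled and hybridized to Affymetrix GeneChip arrays by the manufacturer's procedure, per the labels. The authors deposited signal intensity on a linear scale, 1 value per probe set, already brought to a common scale (each array averages 125.0 once the top and bottom 2% are trimmed). How probe sets were summarised and background corrected was not given in the sources used here. Values were used as deposited. After removal of 64 control probe sets, values under 1 were set to 1, 16 was added and log2 taken, which understates changes of dim genes. All 22746 probe sets were fitted with limma 3.58.1 in R 4.3.3 (lmFit, eBayes with an intensity trend, two-sided, Benjamini-Hochberg adjustment, threshold 0.05). The procedure was also run on simulated data with independent noise drawn from the fitted model. Such a run checks the code and cannot show how the method behaves on these arrays, where same-numbered arrays deviated together. The number of arrays limits the precision.

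Gene names were taken from the platform annotation and brought up to date with RefSeq's TAIR10.1 gene table, also used for neighbours; 13508 of 13513 probe sets with 1 gene matched a locus. The 9 genes, lists and comparisons were chosen with earlier results of these data known. Named genes are the 9, the 2 of each list with the smallest p, and the 3 with the most alike pattern. Others, among them EXPA18 and EXPA7, are neighbours, genes or probe sets named after their values were seen. Alternatives were offsets of 1 and 64, quantile or cyclic loess normalization, testing the brightest 60% of probe sets, dropping the variance trend, a replicate block, and leaving out each array. AtRALF1 was not analysed here.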

Additional observations from a re-analysis of the deposited data

How the results depend on the processing

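The signs of the log2 fold changes of AT3G24480 and of the 6 extensins and AtHRGP2 were the same under every alternative run. Extensins and AtHRGP2 with both 35S:AtRALF1 arrays above both controls numbered 7 with quantile and with cyclic loess normalization, which alone could lower this count. The count was 6 with AtHRGP2, dim in both controls, counted apart. Of 99 values of the 9 genes under alternatives 1 changed sign, that of AT4G18670 without control replicate 1. With all 4 arrays in the fit none passed the adjusted threshold. The groups of the other genes did not overlap, so only quantile and cyclic loess normalization could have changed their signs. Most of the 99 values therefore could not change sign and do not test it. The probe sets called higher numbered 1 in place of 0 among the brightest 60% and 1 with the replicate block, none of them of the 9 genes, and 0 whichever array was left out (the spread of a lone array being taken from the other group). The labels do not say what the repeat numbers share, and same-numbered arrays deviated together across probe sets (correlation 0.39), but 2 pairs cannot settle the pairing; adding the replicate block gave the 9 genes adjusted p-values from 0.659 to 0.945 in limma, and 734 probe sets higher and 914 lower at an unadjusted p under 0.05.

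The difference between extensin and leucine-rich repeat extensin medians (1.08) was 1.18 with an offset of 1, 0.78 with 64, 1.31 on unmarked probe sets, and 1.04 to 1.13 with 1 array left out. Marked against unmarked, all 9 genes differed by -0.10 as reported, -0.18 with quantile normalization and -0.17 with cyclic loess. The difference was -0.27 with an offset of 1 and 0.17 with 64. It was 0.0035 without control replicate 1, and -0.080 to 0.039 over the left-out arrays. Among extensins, AtHRGP2 included, the difference was -0.33 as reported and 0.14 with an offset of 64. Over the left-out arrays it ran from -0.43 to -0.060, the latter without control replicate 1. Leaving out single arrays gave log2 fold changes of -0.52 to 0.13 for AT4G18670, -0.074 to 1.25 for AT1G26240, -0.36 to 0.19 for AT3G57630, -0.051 to 0.72 for AT4G16270 and -0.32 to 0.22 for LHCB4.1. AT3G57630 had 0.0052 with quantile normalization and 0.0038 with cyclic loess, and LHCB4.1 had 0.030 and 0.039. For all of these the cause was not tested. Signals near the 40th percentile (28.5 to 34.6) are of uncertain detection.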
